A study of Mus musculus with 2 samples.

Results

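The hair shaft and inner root sheath transcription factors Hoxc13, Foxn1, Foxq1, Msx1, Msx2, Gata3, Cux1, Ovol1 and Prdm1 were followed from matrix progenitors into the differentiating layers of the follicle. They were picked by gene symbol from the 32285 genes in the deposited count tables, where each of the 9 symbols was listed once. The rule uses no measured value, and the genes were kept out of the variable genes used to cluster the cells.

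In the growing follicle, dividing matrix cells around the dermal papilla leave the cell cycle and enter concentric layers. The inner layers form the medulla, cortex and cuticle of the hair shaft, and the layers around them form the inner root sheath (IRS), which guides the shaft and is lost higher up. Sequence-specific transcription factors act early in this choice, ahead of the keratins and keratin-associated proteins that fill the mature cells, and Wnt signalling through Lef1, Bmp signalling and Notch signalling are known inputs to them.

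Single-cell RNA counts came from 1 library for each label, PADI4 WT and PADI4 cKO, of tdTomato-positive, DAPI-excluded epithelial cells sorted from back skin at postnatal day 1, with the dermal fraction holding the follicles. The knockout was made with K14-Cre, which acts in basal keratinocytes and their descendants, on Padi4 fl/fl, and the protocol text gives that genotype for both libraries, while the genotype label of the control reads WT. Droplet counts of unique molecular identifiers (UMIs, 1 per captured 3′ mRNA end) gave 7996 epithelial cells with 127304664 UMIs for PADI4 WT and 7357 cells with 129504090 UMIs for PADI4 cKO, and all pairs of values below are in this order. Median depth was 14687.5 and 16206 UMIs per cell, and 14 barcodes of kept cells occurred in both libraries.

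A test across animals was not possible with a single library of each genotype, and the number of animals in a library is not given in the sources used here. Intervals are 95% and exact, and cover counting error only. The libraries also differed in sex: cells with Xist UMIs and no UMIs of 4 Y-linked genes made up 26.2% of kept cells under the PADI4 WT label and 98.4% under the PADI4 cKO label. Cells with Y-linked UMIs and no Xist UMIs were 62.3% of the former and 0 of 7393 cells of the latter, which allows a share of up to 0.0406%, so the PADI4 WT library held cells of both sexes. Padi4, the targeted gene, had 98 UMIs in 90 cells and 92 UMIs in 78 cells, or 0.770 and 0.710 CPM (UMIs per 1000000 UMIs of the group), a log2 ratio of −0.12 (95% interval −0.54 to 0.31). These 3′ counts do not show whether the floxed exons were present, so the label of that library was not checked by them, and every direction between the libraries below rests on the label.

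Clusters were named from marker genes other than the 9. The germinative layer-like (GL-like) cells, the matrix progenitors, were 1901 and 1918 cells in 5 clusters (clusters 1, 8, 10, 11 and 12). The cortex-like (Cx-like) cells of the shaft were 356 and 291 cells, the IRS-like cells 533 and 425, the cells like the Krt75-positive companion layer (CL-like) 107 and 103, and the lower proximal cup-like (LPC-like) progenitors 530 and 736. Cluster 7, with 452 and 329 cells, had GL markers but was led by Ednra, Krtap8-1 and Crtac1, and was left unnamed. The Cx-like name rested on a tie, since 5 of 10 Cx markers and 5 of 9 GL markers were raised in that cluster and the tie was settled by the Cx markers among its leading genes (Krt35, Krt86). In the GL-like, Cx-like, IRS-like and CL-like cells and cluster 7, markers of immune cells summed to at most 1.39 CPM and those of endothelial cells to at most 2.59 CPM. The fibroblast list was almost all Dcn, which gave 1845 and 1805 of its 1850.5 and 1809.8 CPM in GL-like cells. Melanocyte markers, led by Dct, summed to 50.4 and 48.8 CPM there and were highest in cluster 7, at 57.0 and 84.8 CPM, of which Dct gave 43.9 and 59.2 CPM.

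The promoters shown are those of the pair of genes whose levels ran most alike over the clusters, Msx1 and Msx2, and of the pair that ran most opposite, Cux1 and Prdm1. They are the 250 bases before the transcription start, taken from RefSeq on GRCm38.p6, and all lie on the minus strand: chr5:37824586-37824835 for Msx1, chr13:53472781-53473030 for Msx2, chr5:136565982-136566231 for Cux1 and chr10:44458749-44458998 for Prdm1. The starts are those of RefSeq. The windows of Msx2, Cux1 and Prdm1 lie inside the gene spans given further down, that of Prdm1 furthest inside. Capitals mark a match to a searched motif.
Msx1: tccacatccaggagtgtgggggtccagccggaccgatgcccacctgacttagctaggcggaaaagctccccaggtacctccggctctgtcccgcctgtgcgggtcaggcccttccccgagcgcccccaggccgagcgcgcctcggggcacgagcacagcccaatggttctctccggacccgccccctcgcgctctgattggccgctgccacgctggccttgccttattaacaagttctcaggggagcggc
Msx2: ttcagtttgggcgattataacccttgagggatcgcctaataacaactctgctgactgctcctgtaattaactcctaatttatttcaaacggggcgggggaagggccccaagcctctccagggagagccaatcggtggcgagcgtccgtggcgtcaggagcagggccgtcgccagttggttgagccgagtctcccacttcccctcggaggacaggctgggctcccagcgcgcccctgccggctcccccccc
Cux1: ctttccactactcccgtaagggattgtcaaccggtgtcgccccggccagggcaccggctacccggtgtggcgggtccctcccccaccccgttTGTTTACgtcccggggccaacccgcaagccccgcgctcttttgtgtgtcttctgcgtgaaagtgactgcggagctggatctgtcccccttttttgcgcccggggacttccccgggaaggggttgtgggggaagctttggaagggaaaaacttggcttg
Prdm1: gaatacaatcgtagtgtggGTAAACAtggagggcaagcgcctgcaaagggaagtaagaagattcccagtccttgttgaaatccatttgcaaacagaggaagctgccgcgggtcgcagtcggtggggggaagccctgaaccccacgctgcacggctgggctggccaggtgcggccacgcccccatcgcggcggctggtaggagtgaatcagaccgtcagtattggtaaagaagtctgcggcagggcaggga

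Matches were searched on both strands for the letters of the LEF/TCF motif (CTTTGA), the GATA motif (AGATAA), the MSX motif (CAATTA), the forkhead motif (GTAAACA) and the posterior HOX motif (CAATAAA). RefSeq promoters were at hand for Foxn1, Msx1, Msx2, Gata3, Cux1 and Prdm1, and only the forkhead letters were found among these 6, once in Cux1, 158 bases before the start and on the strand opposite to the one printed, and once in Prdm1, 231 bases before it. Over 32851 mouse promoters of this length, the forkhead letters occurred in 3.17%, the posterior HOX letters in 4.2%, the MSX letters in 7.17%, the GATA letters in 9.99% and the LEF/TCF letters in 13.8%. A match describes letters in this window, and the lack of one says nothing of the factor.

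**Figure D1:**
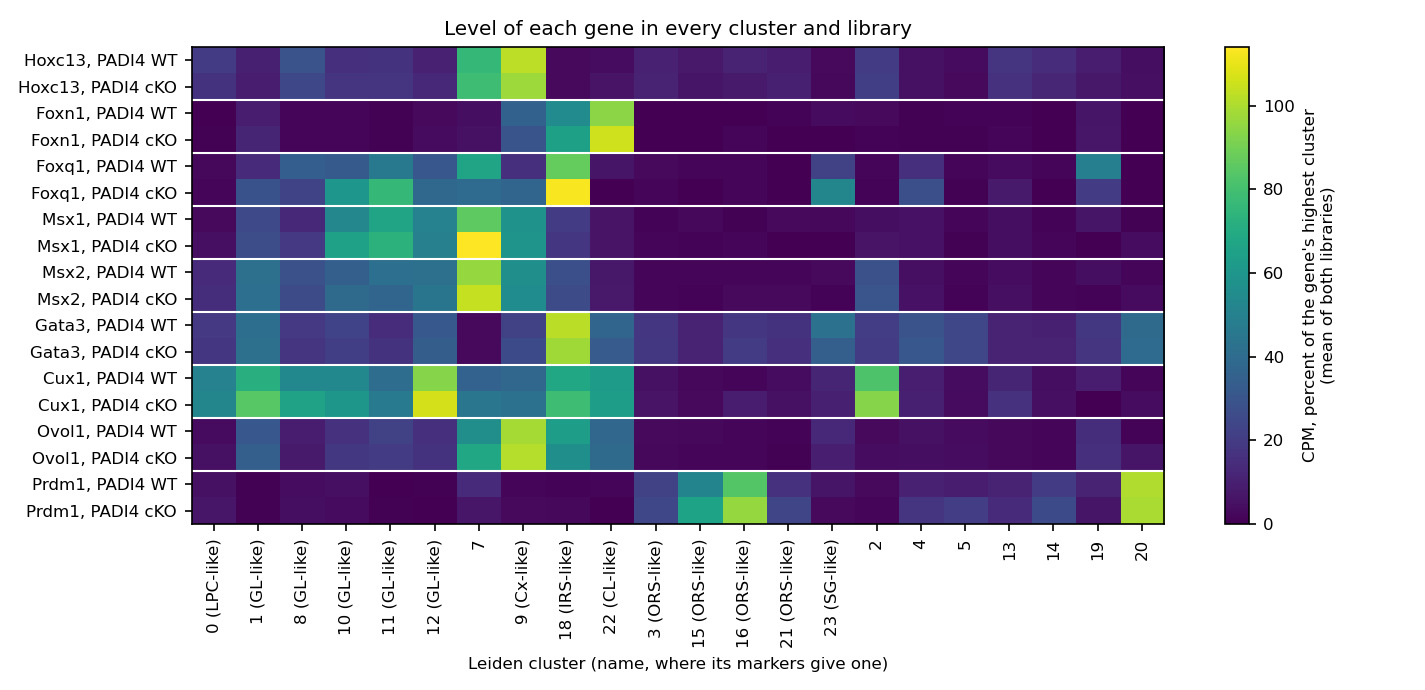
Heatmap of CPM in each of 22 clusters, as a percentage of the gene's highest cluster (mean of both libraries), with 1 row per gene and library; clusters run from LPC-like and GL-like through cluster 7, Cx-like, IRS-like and CL-like to the outer follicle and unnamed clusters. Hoxc13 and Ovol1 peaked in the Cx-like cluster, Gata3 and Foxq1 in the IRS-like cluster, Msx1 and Msx2 in cluster 7, Foxn1 in the CL-like cluster, Cux1 in GL-like cluster 12, and Prdm1 in cluster 20 and ORS-like cluster 16.

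From matrix to shaft, Foxn1, Hoxc13 and Ovol1 were the members at least 2-fold higher in Cx-like than in GL-like cells in both libraries, 3 of 9, where 4.49% of 12343 genes with at least 100 UMIs were. None of the 9 was at least 2-fold lower in both, against 6.34% of those genes, though Foxq1 was once the cells of 1 sub-cluster described further down were left out. The median log2 ratio of the members was 0.36, beside −0.06 over all these genes. The classes came from the same cells, so these ratios describe the cells and are no test. The proliferation marker Mki67 stood at 732 and 646 CPM in GL-like cells and 292 and 205 CPM in Cx-like cells, and the part of the cell cycle in these ratios was not tested.

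Hoxc13, a homeodomain factor of the Hox group that hair keratin genes depend on (chr15:102921103-102928814, plus strand), stood at 590 and 558 CPM in Cx-like cells, against 88.0 and 93.6 CPM in GL-like cells. The log2 ratio was 2.75 (95% interval 2.67 to 2.82) and 2.58 (2.51 to 2.65). Cluster 7 came next with 437 and 452 CPM, and the neighbours Cx-like, cluster 7 and GL-like cluster 8 (167 and 141 CPM) were apart beyond their intervals in both libraries. From cluster 2 downwards (114 and 121 CPM) most neighbouring clusters overlapped. The lowest levels, on the mean of both libraries, were in the SG-like cells, which carry sebaceous gland markers (15.5 and 15.0 CPM), and in the IRS-like cells (16.9 and 16.9 CPM), where RNA free in the droplets could account for up to 7.09 and 7.75 CPM.

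Foxn1, the forkhead factor mutated in nude mice (chr11:78357577-78386558, minus strand), was nearly silent in GL-like cells (4.26 and 3.91 CPM) and reached 43.0 and 35.8 CPM in Cx-like cells. It was higher still outside the shaft, with 66.9 and 78.5 CPM in IRS-like cells and 114 and 129 CPM in CL-like cells. These 3 groups followed each other with intervals apart in both libraries, and all were above every GL-like cluster, the highest of which was cluster 1 with 11.2 and 14.1 CPM. Of the CL-like cells, 76.6% and 80.6% held a Foxn1 UMI, and of the GL-like cells 5.7% and 5.8%, at median depths of 14607 and 14587 UMIs against 16925 and 19918. In ORS-like cells, where Foxn1 was at 0.408 and 0.602 CPM, the share was 0.469% and 0.456% at median depths of 10110 and 11475 UMIs. Free RNA could supply up to 0.730 and 0.515 CPM of Foxn1.

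Ovol1, a zinc finger repressor downstream of Wnt and Lef1 (chr19:5549136-5560646, minus strand), stood at 41.5 and 40.4 CPM in GL-like cells and at 217 and 223 CPM in Cx-like cells. Its log2 ratio was 2.39 (2.27 to 2.50) and 2.46 (2.35 to 2.57). IRS-like cells held 139 and 125 CPM and cluster 7 held 124 and 149 CPM, and these neighbours in the order overlapped, while the Cx-like cells stood above both.

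Msx1 (chr5:37820485-37824583, minus strand) and Msx2 (chr13:53466884-53473074, minus strand), homeodomain repressors that respond to Bmp signals, were not 2-fold apart between Cx-like and GL-like cells. Msx1 was at 241 and 245 CPM in the former and 177 and 203 CPM in the latter, and Msx2 at 223 and 218 CPM against 149 and 150 CPM. Both were highest in cluster 7, with 357 and 473 CPM of Msx1 and 375 and 409 CPM of Msx2, apart from the next cluster in both libraries. Cluster 7 was thus the group in which Msx1, Msx2, Hoxc13, Ovol1 and Prdm1 were at least 2-fold above GL-like cells in both libraries, 5 of 9 where 4.04% of 12401 genes were. Only Gata3 was at least 2-fold lower there, against 2.99% of the genes.

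From matrix to sheath, Foxn1, Gata3, Ovol1 and Foxq1 were at least 2-fold higher in IRS-like than in GL-like cells in both libraries, 4 of 9, where 5.23% of 12475 genes were. Hoxc13 and Msx1 were at least 2-fold lower, 2 of 9, against 5.78% of genes. The members' median log2 ratio was 0.07, beside −0.03 over all these genes. Mki67 was as high in IRS-like cells (763 and 712 CPM) as in GL-like cells (732 and 646 CPM), so the IRS-like group held many cycling cells.

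Gata3, a zinc finger factor needed to specify the IRS (chr2:9857078-9890034, minus strand), stood at 655 and 626 CPM in IRS-like cells against 172 and 166 CPM in GL-like cells. The log2 ratios were 1.93 (1.87 to 1.98) and 1.92 (1.86 to 1.97), of nearly the same size in both libraries. The next clusters, from GL-like cluster 1 (265 and 271 CPM) down to cluster 12 (201 and 215 CPM), overlapped their neighbours in the order. Cluster 7 was the lowest of the 22 clusters at 18.5 and 19.2 CPM, of which free RNA could supply up to 10.7 and 10.5 CPM. The gene overlaps 9230102O04Rik on its own strand, whose reads may not be separable from its own.

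Foxq1, the forkhead factor mutated in satin mice (chr13:31556134-31560976, plus strand), was at 36.5 and 47.4 CPM in IRS-like cells, 12.7 and 19.2 CPM in GL-like cells and 6.46 and 15.7 CPM in Cx-like cells. The IRS-like cells stood apart from the next cluster in the order in both libraries. The clusters that followed, GL-like clusters 11 and 10 and cluster 7, were ordered differently in the libraries: cluster 7 held 27.9 and 16.7 CPM, and cluster 11 held 19.3 and 31.8 CPM.

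Cux1, a cut homeodomain factor whose loss disturbs the IRS (chr5:136248135-136567490, minus strand), was at 2117 and 2432 CPM in IRS-like cells and 2001 and 2327 CPM in GL-like cells, a log2 ratio of only 0.08 (0.06 to 0.10) and 0.06 (0.04 to 0.09). In Cx-like cells it was lower, at 1166 and 1315 CPM. Among the GL-like clusters it separated cluster 12, led by Kit and Myb with 2888 and 3297 CPM, from cluster 11, led by Dcn and Shh with 1260.5 and 1433.8 CPM. On the mean of both libraries it was lowest in ORS-like cluster 15 (outer root sheath markers), at 72.8 and 85.5 CPM. Free RNA could supply up to 57.6 and 64.9 CPM. In the PADI4 WT library alone it was lower in ORS-like cluster 16 (54.9 and 264 CPM) and in cluster 20 (50.3 and 120 CPM). The gene spans 319356 bases and overlaps 3 genes on its strand and Gm16599 on the other.

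Prdm1 (chr10:44437177-44528501, minus strand), also called Blimp1, a repressor linked to terminal differentiation of keratinocytes and sebaceous cells, did not follow either path. It was at 5.33 and 5.04 CPM in GL-like cells, 3.69 and 8.15 CPM in Cx-like cells and 3.13 and 6.37 CPM in IRS-like cells. Its highest levels were in cluster 20, an unnamed group of 39 and 54 cells (265 and 263 CPM), in ORS-like cluster 16 (221 and 253 CPM) and in ORS-like cluster 15 (136 and 175 CPM). The former 2 overlapped, and cluster 16 was above cluster 15 in both libraries. Among the groups of the inner follicle it was highest in cluster 7, at 37.4 and 17.8 CPM, where the LPC-like cells held 12.95 and 17.6 CPM.

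**Figure D2:**
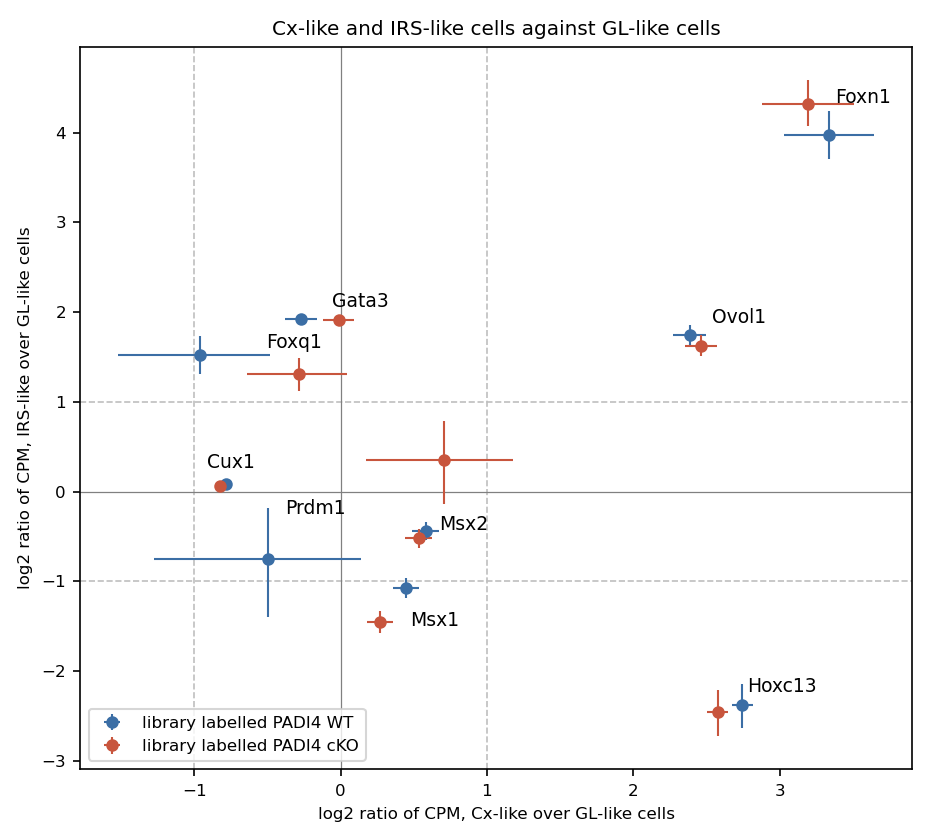
Scatter plot of the log2 ratio of CPM in Cx-like over GL-like cells (x axis) and IRS-like over GL-like cells (y axis) for the 9 genes, with 1 point per library, bars for exact 95% intervals of counting and dashed lines at 2-fold. Foxn1 and Ovol1 sat beyond 2-fold on both axes, Hoxc13 was high on the shaft axis and low on the sheath axis, and Gata3 and Foxq1 were past 2-fold on the sheath axis alone.

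Set directly against each other, IRS-like cells exceeded Cx-like cells at least 2-fold in both libraries for Gata3 and Foxq1, 2 of 9 where 5.59% of 10514 genes did. They were at least 2-fold lower for Hoxc13, Msx1 and Msx2, 3 of 9 where 3.48% did. Hoxc13 showed the widest gap, with log2 ratios of −5.12 (−5.37 to −4.89) and −5.04 (−5.30 to −4.79). For Foxn1 the ratios were 0.63 and 1.13, for Ovol1 −0.64 and −0.84, and for Cux1 0.86 and 0.89.

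The Cx-like cluster held more than 1 kind of cell. At Leiden resolution 2.0, 53.3% of its cells fell into sub-cluster 28, led by Dsg4 and Krt35, 20.6% into sub-cluster 38, led by Hes2 and S1pr3, and 16.4% into sub-cluster 29, which has the epidermal differentiation factors Grhl3 and Zfp750 among its leading genes and whose 302 cells were mostly from GL-like cluster 1, with 106 from the Cx-like cluster. In sub-cluster 28 Hoxc13 stood at 874 and 874 CPM and Gata3 at 29.01 and 30.1 CPM. In sub-cluster 29 Hoxc13 was lower, at 40.1 and 59.4 CPM, and Gata3 higher, at 508 and 560 CPM. Krt35, a shaft keratin, was at 4555 and 4602 CPM in the former and 28.4 and 20.5 CPM in the latter.

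Sub-cluster 29 also carried Foxn1 at 43.2 and 50.9 CPM and Ovol1 at 152 and 172 CPM, while Krt71, a sheath keratin, was at 61.9 and 28.97 CPM there against 3967 and 1363 CPM in sub-cluster 32, the IRS-like cells with the most Krt71. Without the 55 and 51 cells of sub-cluster 29, a set chosen after the data were seen, the Cx-like cells still showed Hoxc13, Foxn1 and Ovol1 past 2-fold in both libraries, and Gata3 in them was at 73.4 and 83.6 CPM, log2 ratios to GL-like cells of −1.23 and −0.99. Foxq1 in the remaining Cx-like cells was at 2.36 and 4.93 CPM, log2 ratios of −2.37 and −1.93, so that it became the single member at least 2-fold lower in both libraries.

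Cluster 7 likewise split into sub-cluster 11, with Mki67 at 579 and 503 CPM, and sub-cluster 20, with Mki67 at 28.8 and 17.2 CPM. Across this split from cycling to non-cycling cells, Hoxc13 stood at 354 and 389 CPM in the former and 729 and 698 CPM in the latter. Msx2 was at 342 and 369 CPM against 509 and 543 CPM, while Msx1 was lower in the latter, 236 and 331 CPM against 377 and 466 CPM. Krt35 was at 662 and 757 CPM in sub-cluster 11 and 642 and 1121 CPM in sub-cluster 20.

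In the IRS-like cells, Gata3 was at 658 and 615 CPM in sub-cluster 31, which held most of them, and 849 and 888 CPM in sub-cluster 32. Msx1 was at 84.9 and 75.4 CPM in the former and 164 and 162 CPM in the latter, and Msx2 at 107 and 100.2 CPM against 193 and 186 CPM. Foxn1 hardly differed, at 66.5 and 73.2 CPM against 67.8 and 74.0 CPM.

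To order the onsets without using the 9 genes, cells were binned by the share of their UMIs taken by shaft keratins or by sheath keratins, and onset was taken as the lowest bin at 50% of the highest bin, on the mean of both libraries. The shaft axis ran over 5247 cells of the GL-like clusters, cluster 7 and the Cx-like cluster in 4 bins. Foxq1, Gata3 and Cux1 were at 50% or more in the lowest bin, 3 of 9, where 90.1% of 12607 genes with at least 100 UMIs on the axis were, and were lower in the last bin. Msx1, Msx2 and Prdm1 reached that level from 0.03% shaft keratin, Hoxc13 and Ovol1 from 0.1%, and Foxn1 from 0.3%, the last bin. Read in each library alone, 3 of these places differed: Prdm1 was already at 54.9% of its highest bin in the lowest bin under the PADI4 WT label, against 27.8% under the PADI4 cKO label, Foxn1 reached 50% from 0.1% in the PADI4 WT library, and Ovol1 from 0.03% in the PADI4 cKO library. Msx1 missed the level narrowly in the lowest bin, at 47.0% and 49.9%. In the last bin Prdm1 stood at 1.18 and 16.6 CPM, so its course along the shaft axis was not shared by the libraries.

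Hoxc13 climbed at every step, from 95.7 and 93.0 CPM in the lowest bin through 318 and 342 and then 589 and 559 to 934 and 901 CPM in the last. Foxn1 stayed at 5.2 and 4.3 CPM, then 6.4 and 8.0 CPM, before reaching 25.6 and 18.2 CPM and 51.1 and 50.5 CPM. Gata3 went the other way, from 184 and 178 CPM to 21.2 and 8.3 CPM. Intervals of the lowest and last bins were apart in both libraries for these 3 genes.

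The sheath axis ran over 5558 cells of the GL-like clusters, cluster 7 and the IRS-like cluster in 5 bins. Hoxc13, Msx2, Cux1 and Prdm1 were at 50% or more in the lowest bin, 4 of 9 where 89.7% of 12737 genes were. Msx1 reached it from 0.03% sheath keratin, and Foxn1, Foxq1, Gata3 and Ovol1 together from 0.3%, each of the 9 in the same bin in both libraries. Gata3 was at 127 and 133 CPM in the lowest bin, 235 and 230 CPM from 0.1%, 783 and 755 CPM from 0.3% and 909 and 923 CPM from 1%. Foxq1 was at 15.8 and 21.01 CPM from 0.1%, 43.8 and 88.1 CPM from 0.3%, where the libraries were far apart, and 60.9 and 61.1 CPM from 1%.

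Hoxc13 was at 17.6 and 15.6 CPM from 0.3% and then at 10.1 and 62.9 CPM from 1%. The last value rests on 34 UMIs in 5 of 38 cells, 27 of them in 1 cell. The order depended on which progenitors started the axis: with clusters 7, 8, 9, 10 and 11 alone, a choice made after the data were seen, Msx1 and Prdm1 were also at 50% in the lowest shaft bin, which made 5 of 9, while Hoxc13, Ovol1 and Foxn1 kept their bins. On the sheath axis, with clusters 1, 12 and 18 alone, likewise a later choice, Foxn1 reached 50% from 0.1%, a bin before Foxq1, Gata3 and Ovol1, so its place beside these genes rested on the choice of progenitors too. With these clusters alone, Hoxc13 was at 59.3 and 82.2 CPM in the lowest sheath bin, against 218 and 153 CPM with all progenitors. From 0.3% it was at 17.3 and 14.6 CPM, so it still fell, over a smaller range.

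**Figure D3:**
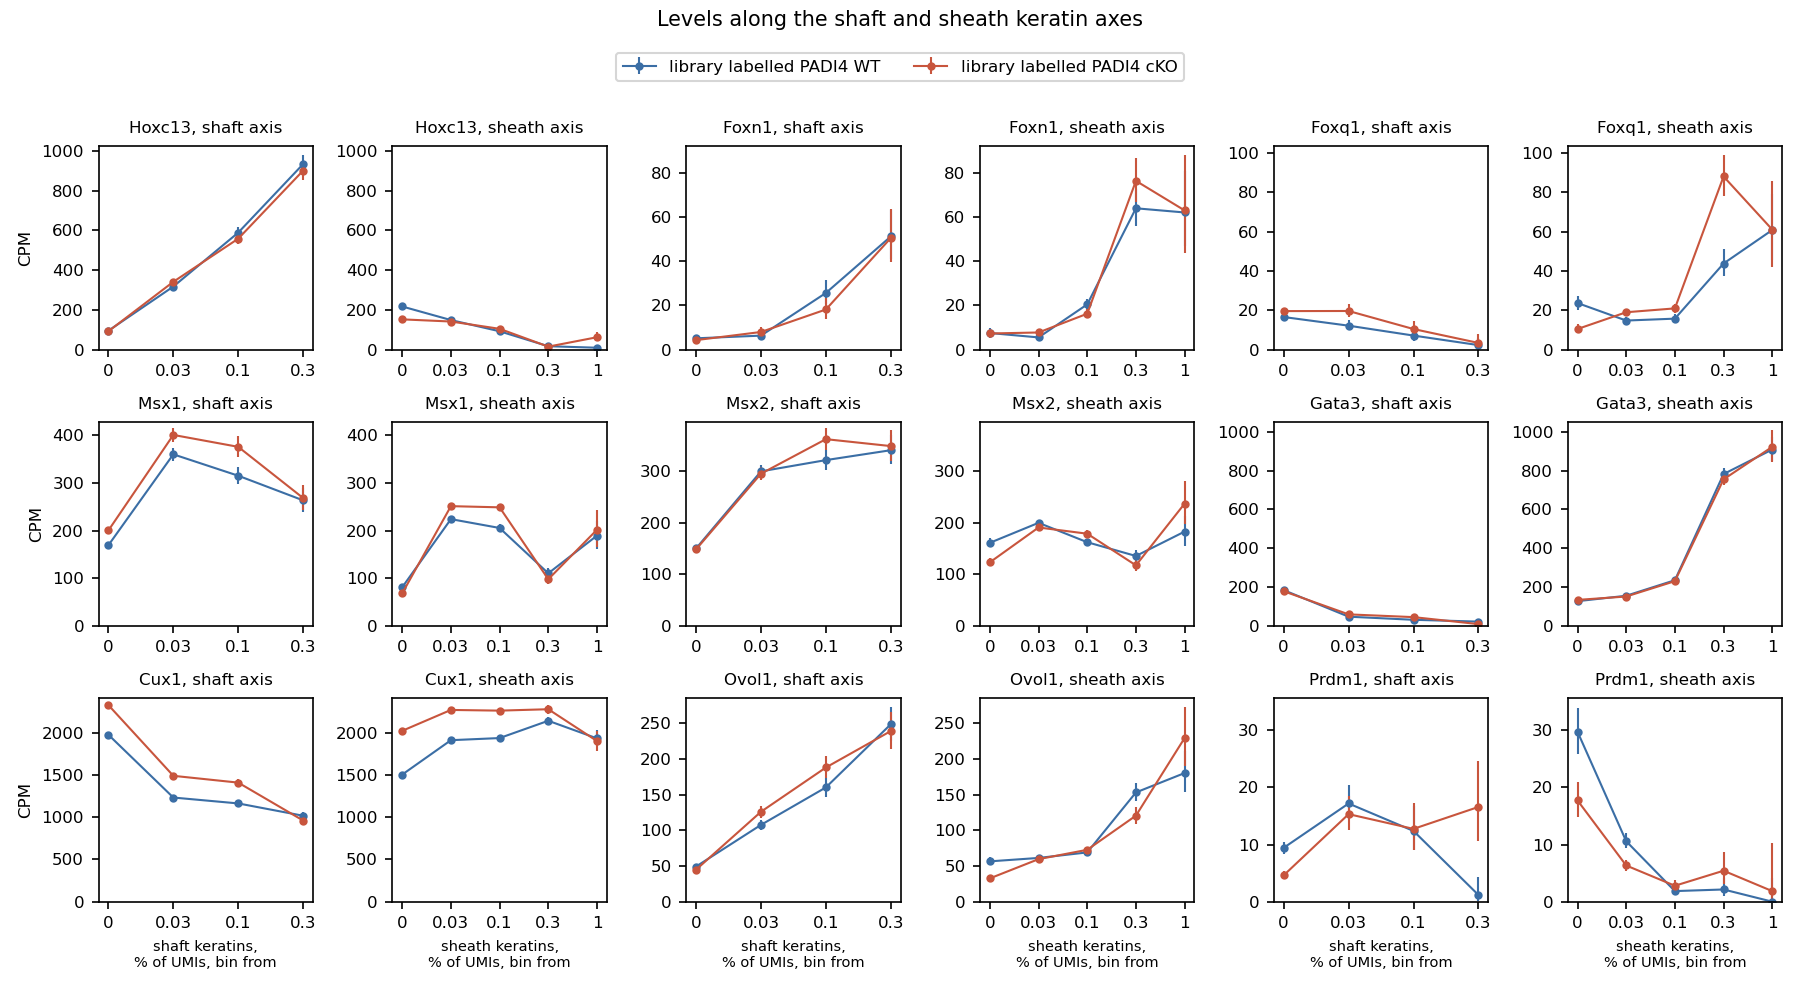
CPM of each gene (y axis, both panels of a gene on 1 scale) in bins of the share of UMIs from shaft keratins or sheath keratins (x axis, lower limit of the bin in percent), by library, with exact 95% Poisson intervals. Hoxc13 climbed on the shaft axis and Gata3 on the sheath axis, Gata3 was lower along the shaft axis, Hoxc13 was lower along the sheath axis up to its last bin, and Ovol1 and Foxn1 were higher late on both.

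Other transcription factors of skin and hair and relatives of the 9 genes were read in the same way. Of 72 such factors, 58 had at least 100 UMIs in Cx-like and GL-like cells, of which 13 were at least 2-fold higher and 9 lower in Cx-like cells in both libraries, beside 4.49% and 6.34% of all genes, with a median log2 ratio of −0.15. The highest ratios were those of Heyl, a Notch target (25.5 and 29.6 CPM in Cx-like cells), Zfp750, an epidermal differentiation factor (192 and 194 CPM), Grhl3 and Sp6, and the lowest those of Sp5, Myb, Snai2 and Lhx2. In IRS-like cells 12 of 59 were higher and 12 lower, beside 5.23% and 5.78% of all genes, with Heyl, Zfp750, Maf and Grhl3 at the top and Sp5, Myb, Lhx2 and Lef1 at the bottom.

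Heyl, Zfp750 and Grhl3 thus led both lists, and Maf, a basic leucine zipper factor, separated the layers, with 135 and 123 CPM in IRS-like cells and a ratio over Cx-like cells of at least 2-fold in both libraries. Zfp750 and Grhl3 are also among the leading genes of sub-cluster 29, which held 16.4% of the Cx-like cells. Their Cx-like ratios were not computed without those cells. On the shaft side of that comparison the lowest ratios were those of Sox21, Lef1, Id2 and Trps1. Of 28 relatives (other Hox, Foxn, Msx, Gata, Cux, Ovol and Prdm genes), 12 could be compared from matrix to shaft, and none was at least 2-fold higher in both libraries. From matrix to sheath 0 of 12 were higher and 4 lower, among them Ovol2 with 28.8 and 23.98 CPM in GL-like cells and 5.92 and 5.10 CPM in IRS-like cells.

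Over the 20 clusters with at least 50 cells in each library, Msx1 and Msx2 had a Pearson correlation of 0.933 in mean log2(CPM + 5), Msx2 and Cux1 of 0.875, and Cux1 and Prdm1 of −0.882. Hoxc13 and Gata3 stood at −0.60. Among 12138 genes, the pattern most like that of Msx1 was that of Lef1 (0.965), that most like Msx2 was Dlx3 (0.975), and that most like Foxn1 was Dsg1b (0.972). For Cux1 it was Gm16599 (0.998), which overlaps Cux1 on the other strand and cannot be read as a separate gene unless strand was kept.

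For the remaining members the nearest patterns were those of Ovol1 with Ppp1r37 (0.963), Prdm1 with Ust (0.961), Foxq1 with Ube2k (0.911), Hoxc13 with Hoxb5os (0.890) and Gata3 with Mto1 (0.825). The clusters share 2 libraries and differ in depth, so these values are descriptions.

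Between the libraries, the 9 genes were compared in 13 groups of at least 50 cells in each library, 117 pairs of gene and group, of which 84 had at least 100 UMIs. The log2 ratio of PADI4 cKO over PADI4 WT, by label, lay above 0.5 in 9 of the 84 pairs, where 2.07% of 120060 pairs of any gene and group did, and below −0.5 in 2, where 2.81% did. The other 73 pairs lay within 0.5. Group medians over all genes were between −0.04 and 0.03. These counts compare 2 libraries that also differ in sex, which cannot be told apart from the genotype over all cells.

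Over all cells, Hoxc13, Foxn1, Msx2 and Gata3 had no pair past 0.5. In Cx-like cells the ratio was −0.08 (−0.15 to −0.01) for Hoxc13, 0.02 for Msx1 and 0.04 for Ovol1, and in IRS-like cells it was −0.06 (−0.12 to −0.01) for Gata3 and 0.23 (0.07 to 0.39) for Foxn1. Hoxc13 ranged over its 11 groups from −0.27 to 0.09, and Gata3 over 13 groups from −0.29 to 0.21. Msx2 was above 0 in 9 of 11 groups, with a highest value of 0.22.

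Among the Xist cells alone, 6 of 33 pairs of these 4 genes lay above 0.5 and 1 below −0.5, where 4.08% of 97598 pairs of any gene and group lay above 0.5 and 2.53% below −0.5. Gata3 was at 1.41 (0.57 to 2.52) in cluster 7, from 11 and 101 UMIs, and at 0.53 (0.24 to 0.84) in cluster 5. Foxn1 was at −0.75 (−1.19 to −0.27) in GL-like cells and Hoxc13 at 0.74 (0.08 to 1.56) in cluster 4. Msx2 was at 0.88 in cluster 4, 0.85 in ORS-like cells and 0.75 in cluster 13, an unnamed group. Apart from that of Gata3 in cluster 5, the pairs above 0.5 rest on 11 to 25 UMIs in the PADI4 WT library. Gata3 in cluster 7 stood at 5.92 and 16.4 CPM among the Xist cells, where free RNA could supply up to 10.7 and 10.5 CPM. Msx2 in ORS-like cells stood at 3.94 and 7.31 CPM, under its free RNA limits of 7.07 and 8.23 CPM.

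Foxq1 had 4 of its 5 pairs past 0.5. In GL-like cells it stood at 12.7 and 19.2 CPM, a ratio of 0.59 (0.42 to 0.77), and at 0.58 (0.29 to 0.89) among the cells with Xist and no Y-linked UMIs. In Cx-like cells, with 6.46 and 15.7 CPM, it was at 1.27 (0.69 to 1.90), from 35 and 79 UMIs. Without the cells of sub-cluster 29 the Foxq1 levels there were 2.36 and 4.93 CPM. Among the Xist cells the Cx-like ratio was 1.82 (0.75 to 3.42), from 6 and 79 UMIs. But the ratio was −1.14 with clusters drawn at resolution 0.5 and 0.17 with the members among the variable genes. In cluster 4, an unnamed group with upper follicle markers, it was at 0.81 (0.28 to 1.38) over all cells and −0.21 (−0.99 to 0.76) over the Xist cells. In cluster 7 the ratio was −0.74 (−1.09 to −0.40), with 224 UMIs in 89 cells and 106 UMIs in 64 cells, and 0.22 (−0.39 to 0.92) among the Xist cells.

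Within cluster 7, Foxq1 stood at 81.8 and 31.1 CPM in non-cycling sub-cluster 20 and at 15.1 and 14.2 CPM in sub-cluster 11, so the libraries were far apart in the former and close in the latter. Sub-cluster 20 made up 24.8% (20.9 to 29.03) and 18.5% (14.5 to 23.2) of the cluster, shares whose intervals overlapped. In the PADI4 WT library, 6 of the 112 cells of sub-cluster 20 held 50% of its 125 Foxq1 UMIs. The melanocyte markers given above also differed between the libraries in cluster 7, and their part and that of sex in the cluster 7 ratios were not tested.

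Prdm1 was past 0.5 in 3 of 8 groups. It was at −1.07 (−1.40 to −0.76) in cluster 7, with 37.4 and 17.8 CPM, and at 1.19 (0.92 to 1.47) in cluster 5, an unnamed group of 685 and 236 cells, with 24.1 and 55.2 CPM. Among Xist cells these were −0.42 (−0.92 to 0.12) and 0.44 (−0.03 to 0.97), both nearer to 0. In cluster 4 it was 0.70 (0.43 to 0.96) and 0.96 (0.39 to 1.65) among the Xist cells. The Prdm1 ratio in LPC-like cells went from 0.44 over all cells to 0.93 (0.37 to 1.59) among the Xist cells. It turned from −0.08 to 0.66 (0.09 to 1.33) in GL-like cells and from 0.22 to −0.03 (−0.39 to 0.35) in cluster 13.

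Cux1 was above 0 in 11 of 13 groups, with a median of 0.17. In GL-like cells it was at 0.22 (0.20 to 0.23) over all cells and 0.04 (0.02 to 0.06) among the Xist cells, and in cluster 7 at 0.32 in both. Its single pair past 0.5 was in ORS-like cells, 0.67 (0.58 to 0.77) with 96.3 and 153 CPM. There cluster 16 held 210 and 878 UMIs, 50% of the latter in 4 cells. The ORS-like ratio was 0.15 without the cells called doublets, 0.08 with each cell thinned to 2000 UMIs and 0.95 among the Xist cells.

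The remaining pairs past 0.5 were Msx1 in LPC-like cells (12.1 and 20.0 CPM, 0.73, 0.42 to 1.05) and in cluster 2 (16.7 and 25.0 CPM, 0.58, 0.27 to 0.90), and Ovol1 in LPC-like cells (7.41 and 10.9 CPM, 0.54, 0.15 to 0.97). The Ovol1 ratio was 0.09 among the Xist cells and fell below 0 in 2 alternatives, to −0.035 with cells of 1000 UMIs or more kept and to −0.31 with the members not left out of the variable genes, so its direction depended on the processing. These are levels well under the peaks of either gene. Msx1 in its peak, cluster 7, was at 0.41 (0.33 to 0.48), and 0.32 (0.20 to 0.44) among the Xist cells.

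Over the 9 genes, 18 of 70 pairs lay above 0.5 among the Xist cells and 1 below −0.5. Of 97598 pairs of any gene and group, 4.08% lay above 0.5 and 2.53% below −0.5. Msx1 had the most, 5 of 9. Its ratio in ORS-like cells turned from −0.38 over all cells to 1.22 (0.30 to 2.46), from 9 and 95 UMIs. In cluster 4 it went from 0.03 to 3.28 (1.72 to 6.65), from 2 and 167 UMIs. Free RNA could supply up to 5.07 and 6.48 CPM of Msx1. That is more than its ORS-like levels among the Xist cells (2.37 and 5.79 CPM) and its PADI4 WT level in cluster 4 (1.88 CPM). In LPC-like cells and cluster 2 the Msx1 ratio stayed close to the values over all cells, at 0.67 and 0.55.

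**Figure D4:**
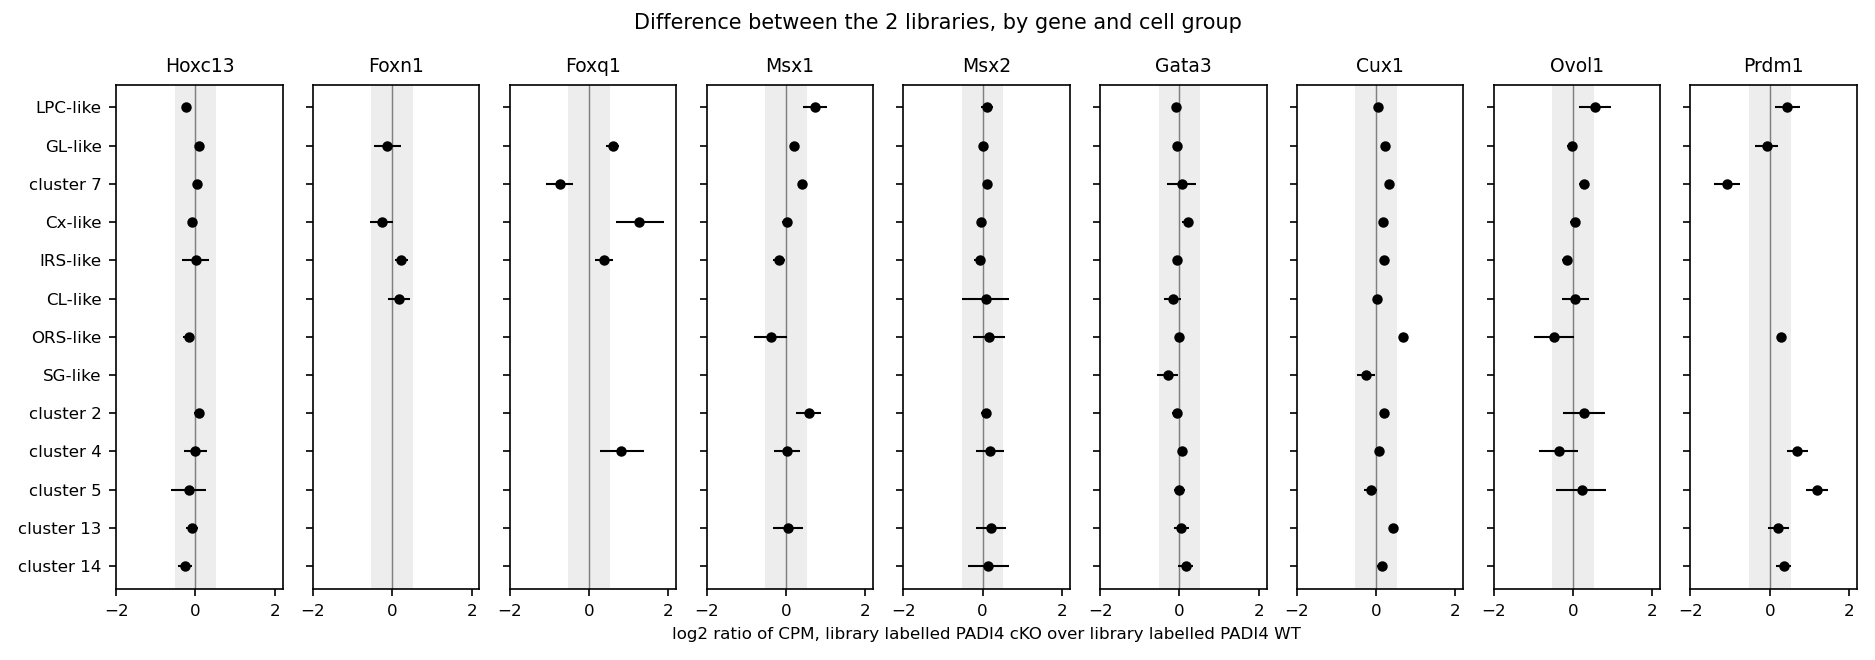
Log2 ratio of CPM in the library labelled PADI4 cKO over the library labelled PADI4 WT (x axis) for each gene (panels) and group of cells (y axis), with exact 95% intervals of counting; the grey band spans −0.5 to 0.5, and pairs under 100 UMIs are left out. Over all cells, which are the cells plotted, Hoxc13, Foxn1, Msx2 and Gata3 stayed within the band in every group, and Foxq1 and Prdm1 lay on both sides of it.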

How the data were processed

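The deposited files hold raw UMI counts per gene and droplet barcode, with no normalization or droplet filter by the authors, made with Cell Ranger 7.1.0 per the file headers. The submitters' notes name mm10 and Scanpy, without a version. Whether intronic reads were counted and strand kept is not given in the sources used here. A droplet was kept if it held 2000 to 60000 UMIs, 1000 to 8000 genes, no more than 20% mitochondrial and 1% hemoglobin UMIs, and a ribosomal share between percentiles 5 and 99. Counts were scaled to 10000, log-transformed and clustered with Scanpy 1.11.5 (1000 variable genes, S and G2M scores regressed out, 50 components, 15 neighbors, Leiden resolution 1.0), giving 26 clusters. CellBender was not run: free RNA, from collagen genes in droplets under 100 UMIs, was at most 7.81% and 7.64% of epithelial UMIs. Doublets were scored with Scrublet. Its automatic threshold for PADI4 WT called under 0.5% of cells, so, after this was seen, the threshold of the other library (0.198) was applied to both. It marked 303 (3.75%) and 296 cells (4.00%), left out in 1 alternative only. A name needed 3 markers 1.5-fold above the other cells at 5 CPM or more, the most of any list. Clusters 4, 5 and 19 met this count too but, like cluster 7, were left unnamed. The rules for ties, for cluster 7 and for clusters with over 90% of 1 library were set after the clusters were seen.

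Python 3.11.15, NumPy 2.4.6 and SciPy 1.17.1 were used. Levels are summed UMIs per 1000000 UMIs (CPM). Ratios carry 0.5 UMI on each sum, and their intervals are exact conditional binomial. Levels by cluster are given for the 22 epithelial clusters with under 90% of their cells from 1 library. Bins under 20 cells in a library were left out. Genes are named as the 9 members and, per member or list, those with the highest correlation or the largest ratios. Gene positions are from GENCODE M21 (GRCm38), which matched 32235 of 32285 gene IDs. The ratio and onset code was tested on simulated data. The members and lists were chosen with earlier results of these data known. Alternatives covered cell limits, doublets, resolution, cell cycle correction, sex, depth, background, scaling, thresholds and bins.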

Additional observations from a re-analysis of the deposited data

Results flagged for a closer look

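Over all cells, Foxq1 and Prdm1 had ratios of opposite sign in different groups of cells. The log2 ratio of the library labelled PADI4 cKO to PADI4 WT for Foxq1 was 1.27 in Cx-like cells, 0.59 in GL-like cells and 0.81 in cluster 4, but −0.74 in cluster 7. For Prdm1 it was 0.70 in cluster 4 and 1.19 in cluster 5, but −1.07 in cluster 7. Among the cells with Xist and no Y-linked UMIs, the Foxq1 ratio turned to −0.21 (95% interval −0.99 to 0.76) in cluster 4 and 0.22 (−0.39 to 0.92) in cluster 7, while GL-like cells stayed at 0.58. The Cx-like ratio of Foxq1 was 1.82 (0.75 to 3.42) among the Xist cells, from 6 and 79 UMIs, but −1.14 with clusters drawn at resolution 0.5. In clusters 4, 5 and 7 Prdm1 kept its signs among the Xist cells, at 0.96, 0.44 (−0.03 to 0.97) and −0.42 (−0.92 to 0.12). In GL-like cells its ratio turned from −0.08 over all cells to 0.66 (0.09 to 1.33) among the Xist cells. With 1 library per genotype the difference between the groups was not tested.

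Cluster 17, which the comparisons leave out because its 45 cells all came from the PADI4 WT library, held Foxq1 at 89.3 CPM (95% interval 70.9 to 111), above the level in each of the 22 clusters compared. Its leading genes were Kcnip4, Lsamp and Meis2, and Gata3 stood at 106 CPM in it, Hoxc13 at 9.92 CPM and Msx1 at 1.10 CPM.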

How the results depend on the processing

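No paired analysis was possible because each genotype has 1 library and the ratios come from no test. The 11 pairs of gene and group past 0.5 between the libraries became 7 with the members not left out of the variable genes, 7 with doublets left out, 19 with only Xist cells, 4 with cells thinned to 2000 UMIs, 17 at a minimum of 50 UMIs and 3 at a minimum of 500. Foxq1 in Cx-like cells turned to −1.14 at resolution 0.5, and Ovol1 in LPC-like cells to −0.035 at a limit of 1000 UMIs and −0.31 with the members not left out; the cause was not tested. The 3 members at 50% of their peak in the lowest shaft bin became 6 when 25% of the highest bin was asked for in place of 50%, and 5 with only clusters 7, 8, 9, 10 and 11, a setting chosen after the data were seen. The counts of members at least 2-fold higher ranged from 2 to 4 of 9 (shaft) and 3 to 4 (sheath) over 15 and 14 alternatives, and the sheath onset count from 3 to 6. Of the single ratios of each gene, 0 of 108 (shaft), 0 of 99 (sheath) and 3 of 459 between libraries turned from past the threshold to the other sign. Counted as moved without such a turn were 60 (shaft), 45 (sheath) and 87 (between libraries). These counts cover the named groups of cells only. Outside the named groups, Foxq1 also turned among the Xist cells, to −0.21 in cluster 4 and 0.22 in cluster 7. Ratios from under 100 UMIs were left out of the counts by choice, some with intervals apart from 0, such as Prdm1 in Cx-like cells at 1.12 (0.34 to 1.99) from 20 and 41 UMIs. Levels under the free RNA limit of a gene cannot be told from background.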
